A study of Drosophila melanogaster with 3 samples.

Results

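The intergenic peaks of GFP-tagged CG17186 were the reproducible peaks that lay away from promoters and outside genes. A peak belonged to them when its summit was more than 500 bp from every annotated transcription start site (TSS) and outside every annotated gene body, with annotated transposable elements left out of the genes. This rule used positions only, and 220 of the 3814 reproducible peaks met it (5.77%, exact 95% interval 5.05 to 6.56%). The other peaks were 2955 promoter peaks, within 500 bp of a TSS, and 639 peaks inside gene bodies away from start sites. The embryos were Drosophila melanogaster of both sexes, aged 0 to 14 hours, from a transgenic CG17186-GFP line that stably expressed CG17186 with GFP at its C-terminus, and chromatin was immunoprecipitated with an anti-GFP antibody in 3 biological replicates. All replicates formed 1 group, with no untagged or second genotype analysed here, and the whole organism was used, so a peak cannot be assigned to a tissue. The reproducible set consisted of the 3814 strongest peaks of the pooled list, so overlap with the replicates' own lists is partly built in.

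DNA between genes holds much of the regulatory sequence of the fly genome. Enhancers there can act on a promoter from a distance, insulator sites bound by proteins such as BEAF-32, Su(Hw) and CTCF separate regulatory domains, and Polycomb response elements hold developmental genes silent. Housekeeping promoters of the fly typically carry other words, among them the DNA replication-related element bound by DREF and the motif bound by M1BP, the motif 1 binding protein.

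The DNA under these summits is shown first for 2 strong members, the strongest of all and one in a short gap between converging genes, and then for 6 members that carry a DREF or an M1BP word. Each line gives the summit base and the 50 bases on each side of it in dm6, 5′ to 3′ on the plus strand, and is named by the genes on both sides. Capitals mark the DREF word TATCGATA, its extension ATCGATAG, the BEAF-32 word CGATA and the M1BP word GGTCACAC, on either strand. CGATA lies inside both of the longer DREF words, so these matches overlap.
CG4607 to Sxl (chrX:7074486-7074586): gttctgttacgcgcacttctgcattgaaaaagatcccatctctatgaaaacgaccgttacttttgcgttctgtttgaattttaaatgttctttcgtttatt
Sol1 to Cyp9f2 (chr3R:12403086-12403186): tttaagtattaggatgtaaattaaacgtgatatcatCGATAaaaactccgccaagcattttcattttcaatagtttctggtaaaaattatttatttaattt
slp1 to slp2 (chr2L:3832471-3832571): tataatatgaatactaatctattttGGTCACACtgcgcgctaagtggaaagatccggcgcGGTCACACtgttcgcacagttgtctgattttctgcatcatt
CG3168 to RpL17 (chrX:6741217-6741317): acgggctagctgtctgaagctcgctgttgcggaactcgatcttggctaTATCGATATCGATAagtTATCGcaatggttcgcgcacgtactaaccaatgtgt
CG4593 to CG12541 (chrX:7015234-7015334): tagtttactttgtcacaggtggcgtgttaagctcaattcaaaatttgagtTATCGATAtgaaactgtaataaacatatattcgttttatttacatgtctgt
myo to ey (chr4:696861-696961): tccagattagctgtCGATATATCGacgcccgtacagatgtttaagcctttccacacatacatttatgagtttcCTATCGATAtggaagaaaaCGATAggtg
CG1529 to Ntf-2 (chrX:21034779-21034879): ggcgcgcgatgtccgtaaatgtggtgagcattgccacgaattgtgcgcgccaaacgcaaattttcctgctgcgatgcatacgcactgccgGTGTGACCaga
CR12460 to mRpS5 (chr3L:24536111-24536211): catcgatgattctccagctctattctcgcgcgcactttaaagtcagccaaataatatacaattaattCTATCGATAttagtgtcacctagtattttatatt

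The strongest member, between CG4607 and Sxl, held none of these words within 50 bp of its summit. In the member between slp1 and slp2 the M1BP word stood 2 times on the same strand, and in the member between CG3168 and RpL17 a pair of overlapping DREF words lay at the summit itself. The members by CG4593 and ey each held 1 DREF word, that by ey with its extension, and the member by mRpS5 held 1 with its extension. The member by Ntf-2 held the M1BP word on the minus strand near the edge of the window.

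Intergenic peaks were mostly of modest strength. Their median pooled signal, on a scale set by an unnamed caller, was 150.3 (109.5 to 1065), against 172.8 for promoter peaks and 152 for gene-body peaks. Ranked by signal among all 3814 peaks, 1 member was among the first 100 and 18 among the first 500. Relative signal, used below, is a replicate's signal for a peak as a multiple of the median in that replicate among peaks seen in all 3. The median member had a relative signal of 0.842, 0.897 and 0.871 in replicates 1, 2 and 3 (mean 0.87 ± 0.0273, SD, n = 3), and the median promoter peak 1.04, 1.03 and 1.04 (1.04 ± 0.00185). The promoter median was higher in 3 of 3 replicates, by 0.166 ± 0.0282, which exceeded the spread between replicates. An exact permutation test over the 3 paired differences gave a two-sided p of 0.25, the smallest it can give. Gene-body peaks had a median of 0.888 ± 0.023, and their difference from the members changed sign between replicates (0.0182 ± 0.0477).

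The summit of the strongest intergenic peak lay just beyond the 3′ end of Sxl, which encodes the RNA-binding master switch of sex determination. The gap between the converging genes CG4607 and Sxl was 1860 bp, with the summit at 7074536, 14 bp outside the annotated end of Sxl. The peak spanned 7074340 to 7074774 on X, so its interval reached into Sxl. Its relative signal was 6.19, 5.81 and 5.87 (5.95 ± 0.203, SD, n = 3), and it ranked 66, 73 and 72 in the 3 replicates. No replicate value of any other member came above 5.

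Next came a peak at 16222373 to 16222621 on 3R, 907 bp upstream of the non-coding gene lncRNA:CR45643, with values of 3.64, 4.42 and 3.69. A second member lay next to it, between lncRNA:CR45643 and tara, a gene of the trithorax group, with values of 1.67, 1.45 and 2.04. Both lay upstream of tara, and the values of the stronger one lay above those of the weaker one in every replicate. The peak between Sol1 and the cytochrome P450 gene Cyp9f2 (3R, 12403006 to 12403259) sat in a gap of 437 bp between the 3′ ends of these genes, with 3.72, 3.85 and 3.33. The peak between COX7AL2 and CG31668 (2L, 2202268 to 2202529) had 3.36, 3.76 and 3.54. The differences among these peaks were within the spread between replicates, apart from the weaker one by tara.

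Some further strong members had a Polycomb or cell cycle gene among their flanking genes. Psc and Su(z)2 are neighbouring Polycomb group genes whose products belong to, or resemble a subunit of, the complex PRC1. A peak of 13035195 to 13035455 on 2R lay 27370 bp beyond the 3′ end of Su(z)2, with values of 3.03, 3.91 and 3.45, and a peak of 12958103 to 12958303 lay 7781 bp beyond the 3′ end of Psc, with 2.59, 3.22 and 2.37. Each lay nearer to another gene, the first 9414 bp from CG13323 and the second 2504 bp from CG13321. These nearer genes also had the nearest start sites. Both peaks were the ends of a group of 5 members that spanned 77.1 kb around Psc and Su(z)2. In this group a pair of members 238 bp apart shared the same replicate peaks. Between blw, which encodes the alpha subunit of the mitochondrial ATP synthase, and the mitotic cyclin gene CycB (2R, 22802843 to 22803082), the values were 3.45, 3.21 and 3.37. On the same arm, 124572 bp from the summit by CycB, a peak between lncRNA:CR44761 and Ppa had 3.02, 2.79 and 4.54. Replicate 3 was the highest there.

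Other strong members were next to developmental and housekeeping genes. The peak between slp1 and slp2 (2L, 3832411 to 3832621), paralogous forkhead transcription factor genes of the segmentation network, lay 4319 bp upstream of slp2 and had 2.74, 2.15 and 2.54. The peak by RpL17, a protein of the large ribosomal subunit (X, 6741175 to 6741374), lay 270 bp from the gene's 3′ end and had 2.24, 2.2 and 2.4. A peak 551 bp upstream of sp3, in the gap shared with the homeobox gene C15, had 1.85, 3.06 and 1.98, with replicate 2 apart from the others. A peak 2464 bp upstream of chinmo, which encodes a BTB zinc finger protein of neuronal temporal identity, had 1.87, 1.63 and 1.75. The remaining members among the 20 strongest had a gap next to CG43131 and RabGGTa, RasGAP1 and CG10809, CG43401 and CG43402, jp and lncRNA:CR44149, Hacd1 and the rhodopsin gene Rh5, CG3149 and lncRNA:CR42794, or CG10479 and lncRNA:CR45439.

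**Figure D1:**
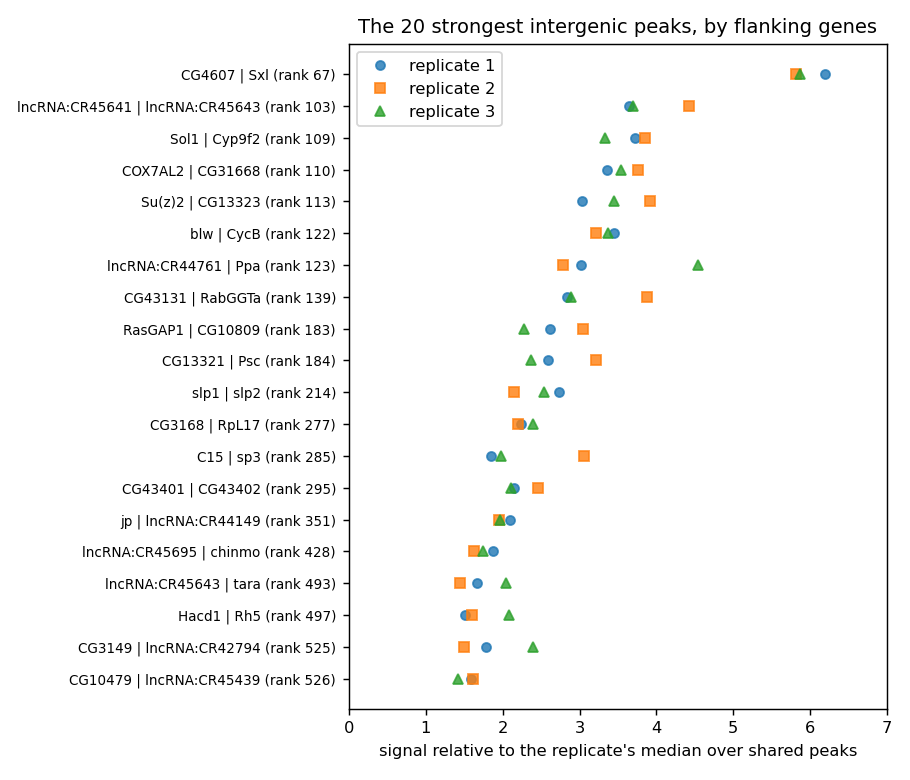
Signal of the 20 strongest intergenic peaks relative to the median shared peak of each replicate (horizontal axis, ratio), with 1 row per peak named by its flanking genes and its rank, and 1 symbol per replicate. The peak next to Sxl stands at 5.81 to 6.19, apart from all others, which lie between 1.42 and 4.54.

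The 20 strongest members varied between replicates by a median coefficient of variation of 11.6% (3.4 to 29%). Among peaks ranked below 500, members had a median of 21.2%, promoter peaks 21% and gene-body peaks 21.8%. Of the 20, 14 had a protein-coding gene at the nearest TSS, 12 lay upstream of it, and 3 lay within 500 bp of a gene's 3′ end. They fell on 2L (6), 3R (5), 2R (4), X (3) and 3L (2). Their intervals were narrow, with 16 of 20 under 410 bp, whereas 193 of all 220 members had a width of exactly 410 bp.

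Weaker peaks were more often intergenic. Rank classes below exclude their lower bound. Of the pooled peaks ranked 1 to 100 the intergenic share was 1% (exact 95% interval 0.0253 to 5.45%), at ranks 100 to 500 it was 4.25% (2.5 to 6.72%), at 500 to 1000 4% (2.46 to 6.11%), at 1000 to 2000 5.5% (4.17 to 7.1%) and at 2000 to 3814 7% (5.87 to 8.27%). Below the reproducible set the share was 13.6% at ranks 3814 to 8718, and 21.3% in the last class. The share of gene-body peaks was also higher at weaker ranks, at 5% in the first class, 20.1% at ranks 2000 to 3814 and 59.2% in the last. Promoter peaks went the other way, from 94% in the first class to 72.9% at ranks 2000 to 3814 and 19.5% in the last. The replicates' own lists gave 1.33 ± 0.577% for ranks 1 to 100, 4.33 ± 0.144% for ranks 100 to 500 and 8.2 ± 1.03% for ranks 2000 to 3814 (SD, n = 3), so the last class lay above the first in every replicate. Each replicate's 3814 strongest peaks held 217, 267 and 223 intergenic peaks, or 6.18 ± 0.716%.

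**Figure D2:**
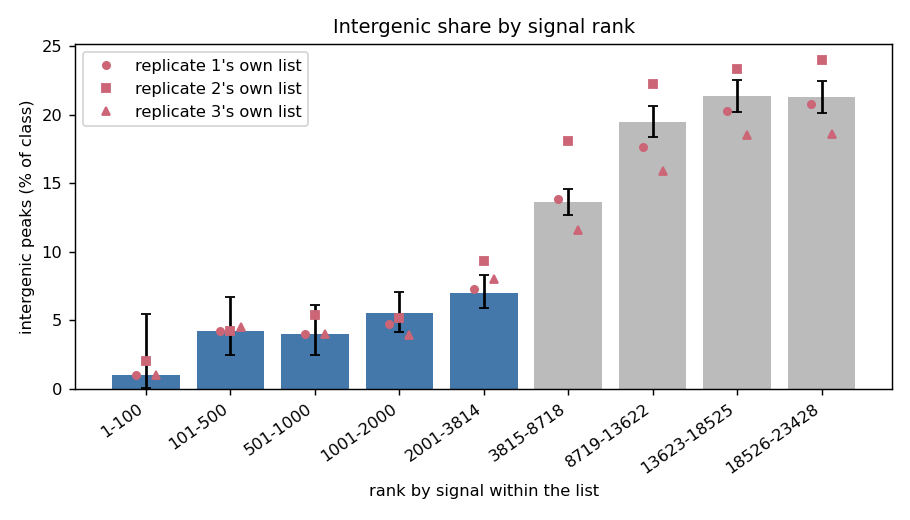
Intergenic share of peaks (vertical axis, percent) by signal rank in the pooled list (horizontal axis), with exact 95% intervals, blue within the reproducible set and grey below it, and each replicate's own list as a symbol. The share stands at 1% for ranks 1 to 100, 7% for ranks 2000 to 3814 and about 21% at the bottom of the lists.

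Almost every member was seen in each replicate. Of the 220, 219 (99.5%) overlapped a peak of all 3 relaxed replicate lists by at least 1 bp, beside 98.5% of all 3814 reproducible peaks. The exception was the peak 1398 bp upstream of bin, a forkhead gene of the visceral mesoderm, which had no overlapping peak in replicate 3. Under the stricter rule that a peak must be among the 3814 strongest of every replicate, 125 members (56.8%, exact 95% interval 50 to 63.5%) were kept, beside 64.4% of all reproducible peaks. This count was lower than the share of all peaks, and it went with rank. Down to rank 1000 all 38 members were kept, beside 100, 100 and 99.4% of all peaks at ranks 1 to 100, 100 to 500 and 500 to 1000, and at ranks 1000 to 2000 it was 54 of 55 (98.2%) beside 90.7% of all peaks. At ranks 2000 to 3814 it was 33 of 127 (26%) beside 30.4% of all peaks. Because 15 members shared a replicate peak with another peak of the set, values of near neighbours are not independent; without such peaks the members' median relative signal was 0.853 ± 0.0385 and that of promoter peaks 1 ± 0.00844.

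Members lay at all distances from start sites, from 504 to 33788 bp, with a median of 2133.5 bp. There were 45 from 500 to 1000 bp, 59 from 1000 to 2000 bp, 58 from 2000 to 5000 bp, 35 from 5000 to 10000 bp and 23 farther away. The median signal was 145.6, 149.8, 161.1, 137.1 and 160.6 in these classes, with no order. The nearest TSS belonged to a protein-coding gene for 146 members, to a non-coding RNA gene for 65, to a tRNA gene for 6 and to a small nucleolar RNA gene for 3. The summit was upstream of that TSS for 142 members and beyond the 3′ end of its gene for 78. The nearest gene edge of any kind was a 3′ end for 105 members, and all 40 members within 500 bp of a gene edge were at a 3′ end, as the rule on start sites requires. A gene at the nearest TSS was itself bound within 500 bp of one of its start sites for 35 members (15.9%, exact 95% interval 11.3 to 21.4%), beside 22.7% of all 18164 genes. The first share counts members, so a gene can recur, and the second counts each gene once. Only the first requires a peak over 500 bp from the TSS, so the shares are not of like units.

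At the limit of the rule, the nearest members were 504 bp from the TSS of CG42571 and of E(spl)m2-BFM and 514 bp from that of Dyro, with pooled signals of 139.7, 124.3 and 114.5. The promoter peaks in intergenic sequence closest to the limit on the other side were 499, 492 and 484 bp from tRNA:Ile-AAT-1-9, CG3505 and lncRNA:CR45277, with signals of 169.3, 127 and 111.1.

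The 5 members farthest from any start site lay in long gaps on 3L and X, and their pooled signals of 119.1 to 208 stood on both sides of the members' median of 150.3. The farthest lay 33788 bp downstream of the TSS of vvl, a POU homeodomain gene, with relative signals of 0.524, 0.596 and 0.918, and had the lowest GC content of all members (14.9%). A pair in the gap of 75047 bp between NijA and CG43245 lay 32042 and 19059 bp upstream of CG43245. The first of them had 1.44, 1.64 and 0.961, and the second 0.964, 1.07 and 0.613. A peak 24776 bp upstream of lncRNA:CR46353, and 48774 bp from the cell death gene rpr, had 0.812, 0.864 and 0.333, and a peak 15790 bp from the TSS of oc, the orthodenticle homeobox gene of the head, had 0.901, 0.92 and 1.09. All values of the first peak at CG43245 lay above those of the peaks by vvl and rpr, and all values of the peak by oc lay above those of the peak by rpr.

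Members lay in shorter gaps than intergenic sequence at large. Their median gap between genes was 9783 bp, whereas the middle base of the sequence that could hold a member (outside genes and over 500 bp from a TSS, called eligible here) lay in a gap of 19272 bp. Of the members, 35 lay in gaps under 2 kb and 49 in gaps over 20 kb. The flanking genes ran in tandem for 113 members (51.4%, exact 95% interval 44.6 to 58.1%), diverged for 59 (26.8%, 21.1 to 33.2%) and converged for 48 (21.8%, 16.6 to 27.9%). Eligible sequence was 52.2% tandem, 21.1% divergent and 26.6% convergent, each within the members' interval.

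The members were spread unevenly over the chromosome arms. Arm 3L held 77 of 220 (35%) and 2L 52 (23.6%), against 19.6% and 17.8% of all reproducible peaks, while X held 19 (8.64%), against 18.3% of all peaks. Per Mb of eligible sequence there were 8.6 members on 3L (exact Poisson 95% interval 6.78 to 10.7), 7.75 on 2L (5.78 to 10.2), 4.96 on 3R (3.51 to 6.81), 4.03 on 2R (2.72 to 5.75) and 3.62 on X (2.18 to 5.66). The small chromosome 4 had 4 members, or 16.3 per Mb, with an interval of 4.44 to 41.8. In the replicates' own strongest lists 3L held 32.3, 31.1 and 33.2% of intergenic peaks (32.2 ± 1.05%, SD, n = 3), and X held 9.12 ± 1.17%. Strong members were seldom on 3L: it held 1 of the 18 members in ranks 1 to 500 (5.56%, exact 95% interval 0.141 to 27.3%), against 49 of 127 (38.6%, 30.1 to 47.6%) at ranks 2000 to 3814. Neighbouring peaks are not independent, and the intervals cover counting error only. Without the largest group on the arm, described next, 62 members on 3L gave 6.92 per Mb (5.31 to 8.87). This value keeps the 8.96 Mb of eligible sequence of the whole arm, and no group was left out on the other arms.

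**Figure D3:**
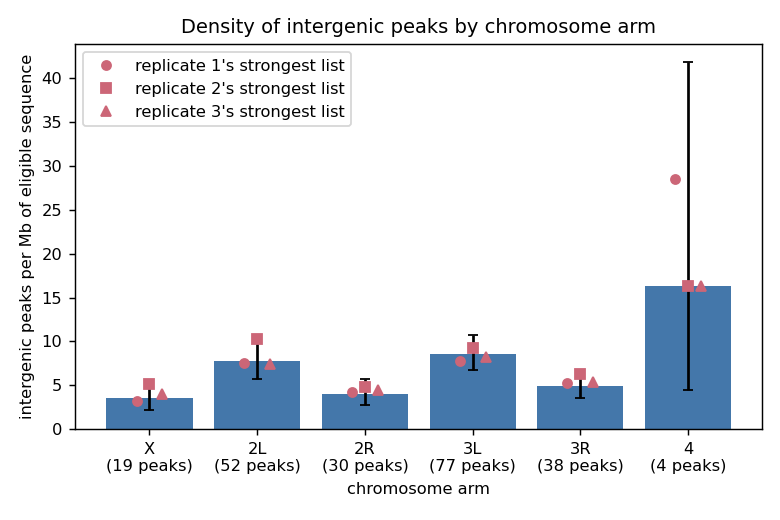
Intergenic peaks per Mb of eligible intergenic sequence (vertical axis) by chromosome arm, with exact Poisson 95% intervals for the reproducible set (bars) and each replicate's strongest list as a symbol. Arms 3L and 2L stand at 8.6 and 7.75, above X, 2R and 3R at 3.62 to 4.96, while the interval of chromosome 4, 4.44 to 41.8, holds 3L, 2L and 3R but not X or 2R.

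Most members had no other member within 10 kb, and some lay in groups. When summits of members up to 10 kb apart were joined, 143 members were single and 77 (35%) fell into 29 groups of 2 or more. The same joining within each class put 37.7% of the 639 gene-body peaks and 66.5% of the 2955 promoter peaks into groups, where the number of peaks differs. With 50 kb, 116 members fell into 33 groups. The largest group at 50 kb held 15 members in 166.1 kb of 3L (11256480 to 11422564), from the gap beside scyl to the gap before CG7560, in which 3 further reproducible peaks lay. Its strongest member had values of 1.14, 2.15 and 1.6, and 6 of the 15 were among the strongest 3814 peaks of every replicate. The densest part was a run of 5 members within 5.63 kb between lncRNA:CR44363 and CG7560, of which a pair 199 bp apart shared the same replicate peaks. A group of 9 lay in 100 kb of 3L holding the coding genes hng3, emc and CG13898, with 7 kept in every replicate's strongest list. A group of 8 lay in 95.9 kb of 2L holding noc, CG33648 and CG4218, with 6 kept. Neither emc, which encodes a helix-loop-helix repressor, nor noc, a zinc finger gene, flanked a member of these groups. Joined at 10 kb, a group of 4 lay upstream of chinmo within 10.1 kb, with 4 kept. Groups of 4 with 2 kept lay between COX7AL2 and CG31668 within 3.92 kb and on both sides of Rh5 within 5.49 kb. Another, between Ids and sty within 13.6 kb, also had 2 kept. Pairs that shared the same replicate peaks also lay 199 bp apart in the group by chinmo and in the group of 9. A further such pair lay 208 bp apart beside scyl in the group of 15. The members of these pairs are counted separately in the group sizes and kept counts.

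Members had another peak close by about as often as promoter peaks did. Another reproducible summit lay within 2 kb of 54 members (24.5%, exact 95% interval 19 to 30.8%), against 24.6% of promoter peaks and 35.5% of gene-body peaks. The nearest other peak of these 54 was a further member for 34, a promoter peak for 19 and a gene-body peak for 1. For 89 members no other peak lay within 10 kb. The most isolated was the member upstream of mRpS5 on 3L, a mitochondrial ribosomal protein gene, 1520295 bp from the next peak, with relative signals of 0.61, 0.641 and 0.483 and the DREF word printed above.

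Of 95 listed genes of embryonic patterning, signalling, neural and muscle development and of insulator and promoter factors, 11 flanked a member (11.6%), beside 345 of all 18164 genes (1.9%). The genes were not matched for the length of intergenic sequence beside them, so the shares are a description only. Among the 11, slp1 and slp2 flanked the same member, as did wg and Wnt4. The bithorax complex of Hox genes (3R, 16656623 to 16972236, from Ubx to Abd-B) held 1 reproducible peak in 315.6 kb, and it was a member, between Glut3 and lncRNA:CR45750, with relative signals of 0.969, 1.89 and 1.28. The Antennapedia complex held 3 reproducible peaks, none of them a member. Of 14 gap and pair-rule genes, slp1, slp2 and odd flanked 2 members. The member by odd lay 10064 bp from that gene and 3859 bp from lncRNA:CR43823. Of 9 segment polarity genes, ptc and wg flanked 1 each. The member 5267 bp upstream of ptc, the Hedgehog receptor gene, had 1.37, 0.691 and 0.95, and the member 11103 bp upstream of wg, a Wnt ligand gene, had 0.689, 0.713 and 0.552. Doc2 was the flanking gene from 16 dorsoventral genes, with 1.03, 0.845 and 1.15. From 12 signalling genes the members were next to wg and Wnt4, which share a gap, and to vn, a ligand of the EGF receptor. The member 24190 bp from vn lay nearer to CG5568, at 1647 bp, and had 0.389, 0.445 and 0.668. From 9 mesoderm and muscle genes, bin and Act57B flanked members, and none of 13 neural genes or of the 8 Hox genes flanked a member. Among 17 genes of insulator and promoter factors, 1 flanked a member. That member lay on X between ph-d and ph-p, paralogous Polycomb group genes, with 0.894, 1.09 and 0.679. Of 88 cytoplasmic ribosomal protein genes, RpL17 and RpS7 flanked 1 member each. The member by RpS7 lay 211 bp from another peak of the set.

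Words typical of promoter peaks were rarer at intergenic than at promoter summits, as they were at gene-body summits. The search covered 17 words on both strands, in a window reaching 50 bp to each side of the summit and in equally wide flanks whose centres lay 300 bp away. The DREF word stood at 4 of 220 members (1.82%, exact 95% interval 0.498 to 4.59%), none of whose flanks held it, and at 9.98% of promoter summits (8.93 to 11.1%). The M1BP word stood at 2 members (0.909%, 0.11 to 3.25%) and 8.05% of promoter summits (7.1 to 9.09%). The BEAF-32 word stood at 32 members (14.5%, 10.2 to 19.9%) and 38.9% of promoter summits (37.1 to 40.7%). For each of the 3 words the intervals of members and promoter peaks did not overlap. Gene-body summits held DREF at 0.626% (0.171 to 1.59%), M1BP at 0.313% (0.0379 to 1.13%) and BEAF-32 at 12.1% (9.63 to 14.8%), with intervals that overlapped those of the members. The same held in each replicate's own strongest list, where promoter peaks exceeded intergenic peaks by 7.83 ± 0.214 percentage points for DREF, 24.2 ± 0.915 for BEAF-32 and 5.98 ± 0.66 for M1BP (SD, n = 3), in 3 of 3 replicates. The exact permutation test over the replicates gave a two-sided p of 0.25 for each, the smallest possible.

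Against their own flanks, no word passed at the members. The lowest p was that of the BEAF-32 word, at 32 summits against 16 left and 18 right flanks (exact McNemar test, p = 0.034, adjusted p = 0.13 over 51 tests), and it was the only word of the 17 with an unadjusted p under 0.05. The DREF word, at 4 summits and 0 flanks, had an adjusted p of 0.38. At promoter summits 8 words were more frequent than in both flanks and 2 less frequent, with adjusted p-values from 2.2e-112 to 0.0013. Among the 8 were ATCGATAG and AACAGCAC, which came from earlier results of these data, so their passing is partly built in. Among gene-body peaks the TATA word TATAAA was more frequent at summits (119 of 639) and the CA repeat CACACACA less frequent. Members went the same way without passing: TATAAA stood at 35 summits against 27 left and 22 right flanks. The CA repeat stood at 4 of their summits against 7 left and 13 right flanks. There were 2955 promoter peaks but 220 members, so a similar share is harder to detect among members.

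The words stood as follows in all 353108 windows of eligible sequence with the width of the summit window. DREF was in 0.214%, M1BP in 0.128% and BEAF-32 in 10.5% of them, against 1.82%, 0.909% and 14.5% of members. Of the insulator words, Su(Hw) TGCATAC stood at 7 members (3.18%), against 1.42% of eligible windows, and CTCF AGGNGGC at 14 (6.36%), against 3.42%. The embryonic activator word of Zelda, CAGGTAG, stood at 3 members (1.36%), the Pho word GCCATNTT at 7 (3.18%) and the GAGA word GAGAGAG at 5 (2.27%), against 0.431%, 2.27% and 1.1% of eligible windows. Motif 7, CANCNCTA, stood at 9 (4.09%), against 2.5%. The homeodomain word TAATTA stood at 17 (7.73%), the E-box CAGCTG at 3 (1.36%) and the Twist E-box CATATG at 9 (4.09%), against 7.4, 3.46 and 2.87%. ZIPIC CAGGGCTG stood at 2 members, and AACAGCAC, a word found earlier at the strongest peaks of these data, at 0 of 220, which allows a share of up to 1.36% (3 counts of 220; exact upper limit 1.66%). It stood at 2.37% of promoter summits and in 0.312% of eligible windows. Promoter peaks made up 94% of ranks 1 to 100, so the contrast with promoter summits is partly built in. These matches are a description of letters in the window.

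**Figure D4:**
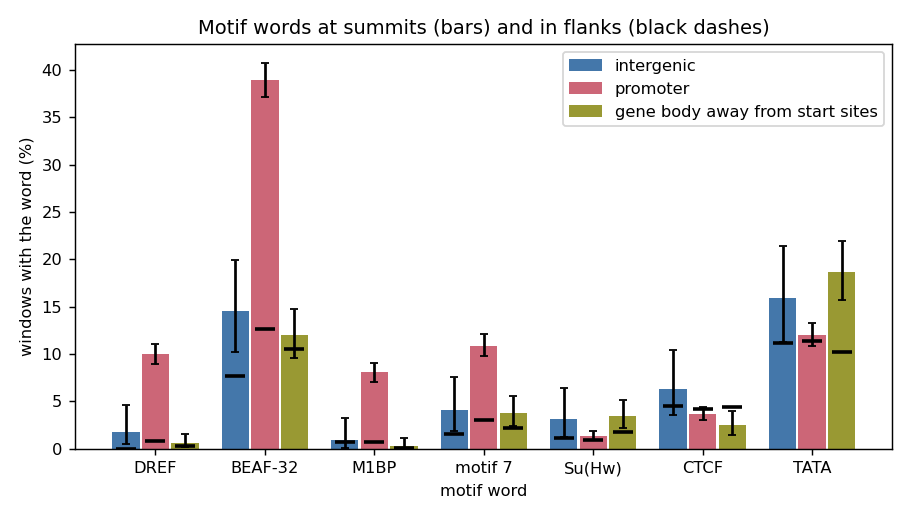
Share of summits with a word (vertical axis, percent) for 7 words in intergenic, promoter and gene-body peaks, with exact 95% intervals, and the mean share in the 2 flanks as black dashes. DREF, BEAF-32, M1BP and motif 7 stand higher at promoter summits. For the intergenic peaks the BEAF-32 bar of 14.5% lies above its flanks at 7.73%, a difference that did not pass (exact McNemar test, adjusted p = 0.13).

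Summits of the members were poor in G and C relative to their flanks. Within 50 bp of the summit the median GC content was 36.1% (quartiles 29.7 and 42.6%), against 43.6% for the mean of the flanks and 41.6% for the windows of eligible sequence. It was below the flanks at 139 of 220 members (63.2%, exact 95% interval 56.4 to 69.6%), at 55.4% of promoter peaks and at 74% of gene-body peaks. Promoter summits had a median of 40.6% and gene-body summits 34.6%. The shapes differed, as the profile shows: members had a mean of 40.7%, 36.6% and 40.5% at -100, 0 and 100 bp from the summit, gene-body peaks 42.4%, 34.9% and 42%, and promoter peaks 37.5%, 41.1% and 38.1%, with a local maximum at the summit. In each replicate's strongest list promoter summits exceeded intergenic summits in median GC, by 1.98 to 4.95 percentage points (2.97 ± 1.71, SD, n = 3; exact permutation test, two-sided p = 0.25, the smallest possible).

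**Figure D5:**
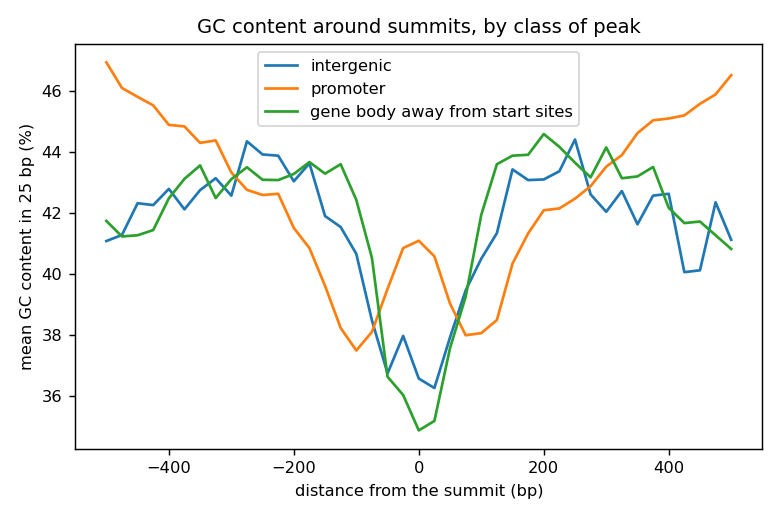
Mean GC content in windows of 25 bp (vertical axis, percent) by distance from the summit (horizontal axis, bp) for intergenic, promoter and gene-body peaks. Intergenic and gene-body peaks dip to 36.6% and 34.9% at the summit, whereas promoter peaks have a local maximum of 41.1% between 2 minima.

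No summit of a member lay in an annotated transposable element (0 of 220, where 3 counts, the limit that a count of 0 allows, would be 1.36%), and 7 lay within 500 bp of one. Repeats masked in the reference covered over 50 of the bases in the window around the summit at 12 members (5.45%). No share over eligible sequence or over other peaks was set beside these counts, so they are a description only. How reads in repeats were mapped was not described in the sources used here.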

How the data were processed

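ChIP-seq of CG17186-GFP was measured in 3 biological replicates of embryos aged 0 to 14 hours, and the chromatin was sheared to 200 to 800 bp, per the labels. The deposited files are peak lists of 10 columns: per the read-me tables deposited with them, the authors called relaxed lists on each replicate (30000, 26139 and 30000 peaks) and on the pooled replicates (23428), and an IDR-thresholded list of 3814. Signal is the authors' deposited column 7. Neither the aligner nor the caller nor the IDR threshold was given in the sources used here. Without read counts the depth is unknown, and intervals cover the counting of peaks only. The dm3 lists were not used.

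Genes came from Ensembl release 115 on dm6 coordinates and sequence from the dm6 assembly. The summit was the start plus the offset. Overlap needed 1 bp. Shares have exact Clopper-Pearson 95% intervals. Words were compared between summit and each flank by exact McNemar tests; the larger p was kept and adjusted by Benjamini-Hochberg over 51 tests (17 words in 3 classes; threshold 0.05). Replicate differences were tested by exact permutation. Peaks are not biological replicates, so McNemar p-values describe the set. Python 3.11.15, pandas 2.3.3, numpy 2.4.6 and SciPy 1.17.1 were used, and the motif search was tested on simulated data. Named peaks are the 20 strongest, the 5 farthest from a TSS, those nearest the 500 bp limit, and those next to listed genes; groups of neighbouring peaks and peaks with DREF or M1BP words were named after their values were seen. The members and lists were chosen with earlier results of these data known, and the words ATCGATAG and AACAGCAC came from those results.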

Additional observations from a re-analysis of the deposited data

How the results depend on the processing

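Of 29 alternative values, 16 kept their direction or stayed within the counting interval or replicate spread. The intergenic share of 5.77% was 9.47% (361 peaks) with a limit of 200 bp, 4.59% (175) with 1000 bp, 7.5% (286) with protein-coding genes only, 4.67% in the stronger 50% of the set and 7.001% in the strongest list of replicate 2 alone. The share kept in every replicate, 56.8% beside 64.4% of all peaks, was 82.7% beside 84.6% with 1.5 times as many peaks, and 64.5 to 68.6% beside 70.5 to 74.8% without 1 replicate, where fewer lists have to match. With the whole relaxed lists it was 99.5% beside 98.5%, so the members then stood above all peaks. The median distance from a start site was 3929.5 bp with protein-coding genes only. Another peak lay within 2 kb of 80.5% of members when the pooled relaxed list was used. The count of summits at transposable elements was 7 when 500 bp around them was included. No word passed under any of the 4 alternatives of window, flank, strength or distance, with smallest adjusted p-values of 0.19 to 1. The excess of promoter over intergenic relative signal was 0.152 to 0.18 without 1 replicate. The unknown depth limits what a missing peak shows.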
